A study of Mus musculus with 18 samples.

Results

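The YAP/TEAD factors and targets followed here are the coactivator Yap1, its paralogue Wwtr1 (the gene of TAZ), the DNA-binding partners Tead1, Tead2 and Tead4, the classical target genes Ctgf, Cyr61 and Ankrd1, and the angiomotins Amotl2 and Amot. They were taken by name, with earlier results of these data known. All 10 were found among the 49671 gene identifiers of the count table, where the annotation lists Ctgf as Ccn2 and Cyr61 as Ccn1. Poly(A) RNA of 18 samples was sequenced, with 6 groups of 3. The wild-type line was E14, a mouse embryonic stem (ES) cell line, and its cells were embedded at passage 20 in Matrigel, an extracellular matrix hydrogel, and cultured for 48 h in N2B27 medium. The medium held DMSO as solvent control, the Gsk3 inhibitor CHIR99021 at 3 µM (CH), CHIR99021 at 3 µM with the Mek inhibitor PD0325901 at 0.4 µM (2i), or Fgf2 at 12 ng/ml with Activin A at 20 ng/ml (Fgf2/Activin). Esrrb fl/fl ES cells of an Acr-EGFP transgenic strain, which carry a tamoxifen-inducible Cre, were cultured at passage 25 in Matrigel for 24 h in CHIR99021 at 3 µM. They had either received 4OHT, the activator of that Cre, for 1 day beforehand (Esrrb_4OHT) or not (Esrrb_NT). Wording below such as rose, went from or after 4OHT compares these groups of separate samples at the same 24 h, not time points. Every line had been maintained in 2i/Lif before embedding. Both Esrrb groups share CHIR99021, the floxed alleles and the Cre transgene, and 4OHT was given only to floxed cells, so an effect of 4OHT itself and one of Esrrb loss cannot be told apart. Levels in wild-type and Esrrb fl/fl cells are set side by side without a test, since line, passage and culture time all differ.

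In the Hippo pathway, the kinases Stk3 and Stk4 activate Lats1 and Lats2, which phosphorylate YAP and TAZ and thereby keep these coactivators out of the nucleus. When they are not phosphorylated, YAP and TAZ enter the nucleus and bind the TEAD factors, which contact DNA and switch on genes of the matrix, the cytoskeleton and growth. Angiomotins bind YAP and TAZ in the cytoplasm and at cell junctions, and some angiomotin genes are themselves targets. In the preimplantation mouse embryo, Tead4 with Yap1 is known for its part in specifying the trophectoderm, the outer lineage. The pathway acts largely through protein phosphorylation and location, which RNA does not record.

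TEAD factors bind DNA at a short motif whose core is GGAATG, read as CATTCC on the other strand. To show which members hold this core close to their own start, the 250 bases before the start of each gene were taken from RefSeq promoters of GRCm38.p6, which had entries for 7 of the 10 members. Ctgf, Tead1 and Tead4 had none. The core was found on either strand in 5 of the 7, against 12.6% of the 32851 promoters of this length and 14.4% of 27025 genes. Ankrd1, Cyr61, Wwtr1, Amotl2 and Yap1 held it, and Tead2 and Amot did not. The letters were also searched for CTTTGAT, a core bound by the TCF/LEF partners of β-catenin (read ATCAAAG on the other strand), and for AAGGTCA, a core bound by Esrrb (read TGACCTT). The TCF/LEF core was found in Wwtr1 and Amotl2, against 3.21% of all promoters, and the Esrrb core in none of the 7, against 4.08%. A match describes letters only. The 5 promoters that hold the TEAD core are printed on the strand of the gene, with every match to the TEAD core and to the TCF/LEF core in capitals.
Ankrd1, chr19:36119845-36120094, minus strand: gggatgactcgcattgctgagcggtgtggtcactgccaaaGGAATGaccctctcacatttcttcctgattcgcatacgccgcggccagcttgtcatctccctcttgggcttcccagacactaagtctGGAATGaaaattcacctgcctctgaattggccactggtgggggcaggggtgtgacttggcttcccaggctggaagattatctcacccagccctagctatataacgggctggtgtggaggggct
Cyr61, chr3:145649986-145650235, minus strand: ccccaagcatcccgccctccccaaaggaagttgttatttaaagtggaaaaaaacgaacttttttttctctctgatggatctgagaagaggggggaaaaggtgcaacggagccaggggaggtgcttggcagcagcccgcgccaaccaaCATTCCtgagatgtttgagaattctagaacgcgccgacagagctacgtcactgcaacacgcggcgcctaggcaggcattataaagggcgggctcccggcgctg
Wwtr1, chr3:57575911-57576160, minus strand: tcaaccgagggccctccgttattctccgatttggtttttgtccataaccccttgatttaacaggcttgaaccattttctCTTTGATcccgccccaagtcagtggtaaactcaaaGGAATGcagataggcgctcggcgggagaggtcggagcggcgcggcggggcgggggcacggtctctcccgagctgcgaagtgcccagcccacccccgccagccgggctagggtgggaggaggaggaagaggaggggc
Amotl2, chr9:102717554-102717803, plus strand: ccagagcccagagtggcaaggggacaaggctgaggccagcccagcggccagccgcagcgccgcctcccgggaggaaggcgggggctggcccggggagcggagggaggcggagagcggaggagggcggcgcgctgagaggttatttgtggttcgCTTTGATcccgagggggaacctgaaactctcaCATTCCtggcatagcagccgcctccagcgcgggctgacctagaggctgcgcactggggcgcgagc
Yap1, chr9:8004597-8004846, minus strand: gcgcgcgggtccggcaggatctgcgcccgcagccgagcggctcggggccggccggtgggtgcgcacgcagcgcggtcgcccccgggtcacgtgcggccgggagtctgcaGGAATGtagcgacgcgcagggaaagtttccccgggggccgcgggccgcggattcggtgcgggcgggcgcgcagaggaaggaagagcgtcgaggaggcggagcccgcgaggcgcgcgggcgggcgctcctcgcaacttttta
Ankrd1 held the core at 210 and at 123 bases before its start, Yap1 at 141, Wwtr1 at 136, Cyr61 at 103 and Amotl2 at 65, the last pair on the opposite strand. The TCF/LEF core stood 171 bases before the start in Wwtr1 and 97 bases before it in Amotl2. The RefSeq start lay 1132 bases from the 5′ end of the GENCODE gene for Amotl2, 255 bases from it for Ankrd1 and 17542 bases from it for Amot, so these windows belong to one of several possible starts.

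Between 25388139 and 37158661 reads were counted on genes in each wild-type sample and between 19915222 and 20140699 in each Esrrb fl/fl sample. Levels are given in CPM, that is, counts scaled by TMM to a common library size. TMM was run within the wild-type and within the Esrrb fl/fl samples, so levels of these sets do not share a scaling. The markers of pluripotent cells were abundant everywhere, with 8 of 8 detected and a summed level between 1673 and 4748 CPM. Markers of trophectoderm summed to at most 121 CPM in any sample, those of fibroblasts to at most 50.5 CPM and those of primitive endoderm to at most 10.6 CPM. Esrrb itself had 142, 110 and 109 CPM in Esrrb_NT and 58.9, 63.8 and 59.8 CPM in Esrrb_4OHT, a log2 fold change of -0.99 (SE 0.10, adjusted p = 7.44e-05). The count is of the whole gene, so transcripts that lack the floxed segment and intact transcripts of cells without recombination cannot be told apart in it. These are bulk samples, so fewer cells of a type and less RNA per cell cannot be told apart.

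Replicate 1 stood apart from replicates 2 and 3 in every group. Among genes averaging at least 100 counts, between 0.464% and 5.87% differed by more than 1 on the log2 scale between replicate 1 and the mean of the others, against 0.0% to 0.555% between replicates 2 and 3. The members were among the genes that moved with it, as the plot of replicate 1 against the others shows. Ctgf, Amotl2 and Wwtr1 were higher in replicate 1 than in both others in 6 of 6 groups, and Cyr61 and Tead1 in 5 of 6. Yap1 was lower in 6 of 6, by little, at 0.869 to 0.985 times the mean of the others. The gap was widest in DMSO, where replicate 1 had 5.69 times the Cyr61 level of the others, 4.80 times the Ctgf level, 2.58 times the Tead4 level, 2.37 times the Tead1 level and 2.31 times the Amotl2 level. Other lists moved with DMSO replicate 1 as well. Fibroblast markers summed to 50.5 CPM in it, of which Thy1 made up 48.0 CPM, against 17.3 and 21.7 CPM in the others, and heat shock genes to 181 CPM against 426 and 430.2 CPM. The pluripotency markers summed to much the same, 1777 CPM against 1766 and 1673 CPM. Among them, however, Esrrb had 30.2 CPM in it against 8.98 and 6.87 CPM. Their part in the levels of the members was not tested. In Esrrb_NT, replicate 1 had between 1.10 and 1.19 times the level of the others for Ctgf, Cyr61, Amotl2 and Tead1. In Esrrb_4OHT it had 1.54 times for Cyr61, 1.51 times for Ctgf, 1.13 times for Amotl2 and 1.03 times for Tead1. For Ankrd1, at few counts, it had 2.73 times there. Values without replicate 1, that is, with the first replicate of every group removed, are therefore given beside the results of the members that change with it and beside counts of the pathway and target lists.

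**Figure D1:**
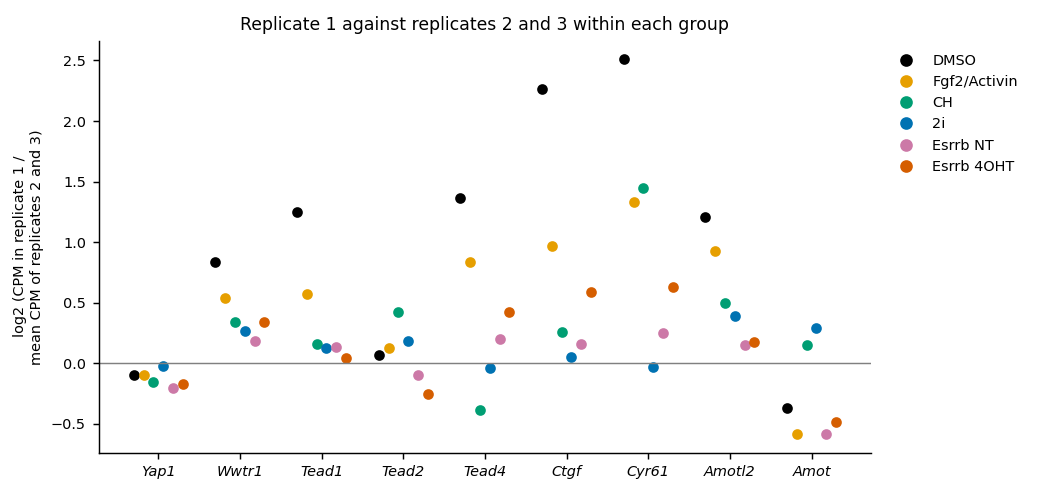
Each point is 1 group: the log2 ratio of a member's CPM in replicate 1 to its mean CPM in replicates 2 and 3 (vertical axis), by gene, shown where the group averaged at least 10 counts. Ankrd1 is left out. The DMSO points of Cyr61 and Ctgf lie highest, at ratios of 5.69 and 4.80, and all 6 points of Yap1 lie below 0.

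Each comparison was tested over all genes with edgeR's quasi-likelihood test, and every adjusted p is Benjamini-Hochberg adjusted over the genes tested. A gene was called higher or lower at an adjusted p under 0.01 and a log2 fold change above 1 in size. The labels do not say whether the 3 samples of a group came from separate cultures, so the p-values measure the spread between these samples, which may be technical. Between CH and DMSO, which asks what Gsk3 inhibition does in this 3D model, 3 of 9 tested members were called higher and 1 lower, while 7.51% of all 16413 genes were called higher and 10.2% lower. The median log2 fold change of the members was -0.45, against -0.00 over all genes. Between 2i and CH, the addition of the Mek inhibitor, none was called higher and 1 lower (background 0.317% and 1.67%). By an unadjusted p under 0.05 in edgeR, 1 member was higher there and 3 were lower, and DESeq2 called 0 higher and 1 lower. Between Fgf2/Activin and DMSO 1 was called higher and none lower (background 0.902% and 0.347%), with 2 higher and 1 lower by the unadjusted p in edgeR and 1 and 0 by DESeq2. Between 2i and Fgf2/Activin, the naive and the primed reference culture, 3 were called higher and 2 lower (background 9.13% and 14.4%). Between Esrrb_4OHT and Esrrb_NT 4 of 10 members were called higher and none lower, against 12.8% and 3.87% of 14893 genes. There, 6 members were higher and 1 was lower by the unadjusted p in edgeR, and DESeq2 called 4 and 0. At an adjusted p under 0.01 with no minimum fold change, 3664 of the 14893 genes were higher and 2957 lower in edgeR. The share of all genes by the unadjusted p is not given for any comparison, so counts by it have no background. Ankrd1, among those called higher, passed the count filter only through its Esrrb_4OHT counts and could not have been called lower. The median of the members was 0.67 in the Esrrb comparison, and 0.00 over all genes. That median includes Ankrd1, so it rests in part on a gene that could only be higher there. Ankrd1 had too few counts to pass the filter in the wild-type cultures and was not tested there. Without replicate 1, Wwtr1 joined the members called between CH and DMSO and Amot dropped out, and the median of the members there turned from -0.45 to 0.53. Cyr61 joined those called lower between 2i and CH and between 2i and Fgf2/Activin, and the 4 called after 4OHT were the same genes. Of all 16428 genes tested without replicate 1, 1600 were called higher and 2202 lower between CH and DMSO. The counts were 214 and 554 between 2i and CH, 318 and 181 between Fgf2/Activin and DMSO and 1775 and 2766 between 2i and Fgf2/Activin. After 4OHT they were 1971 and 635 of 15110. The first and the third comparison share the DMSO samples, and the fourth shares its samples with others too.

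**Figure D2:**
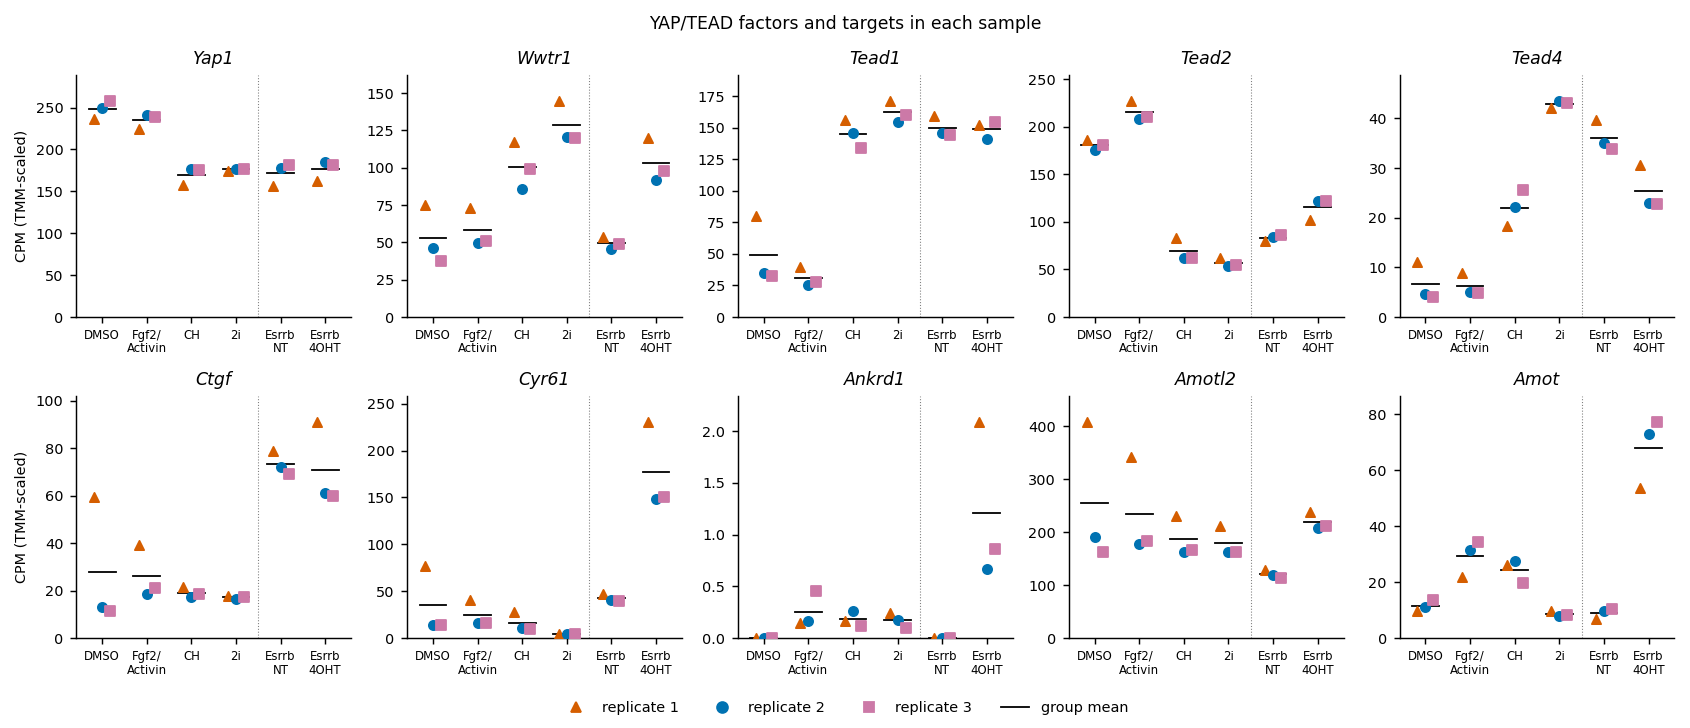
CPM (vertical axes, from 0) of the 10 members in each of the 18 samples by group, with replicates 1, 2 and 3 as triangles, circles and squares and the group mean as a line; the dotted line separates wild-type from Esrrb fl/fl cells. Tead1 and Tead4 are low in DMSO and Fgf2/Activin and high in CH and 2i, Tead2 the reverse, and Cyr61 and Amot are highest in Esrrb_4OHT.

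Of the coactivators, Yap1 (chr9:7931999-8004596, minus strand) was the steadier. It had 237, 249 and 258 CPM in DMSO, 225, 241 and 239 CPM in Fgf2/Activin, 157, 176 and 175 CPM in CH and 174, 177 and 177 CPM in 2i. All 6 samples with CHIR99021 lay below the 6 without it. The difference was small but well beyond its error. The log2 fold change of CH over DMSO was -0.55 (SE 0.06, adjusted p = 4.23e-05) and that of 2i over Fgf2/Activin -0.42 (SE 0.06, adjusted p = 0.000204), neither of which passed the minimum fold change. DMSO and Fgf2/Activin overlapped, as did CH and 2i. In Esrrb fl/fl cells Yap1 had 172 ± 13.7 CPM (SD, n = 3) in Esrrb_NT and 176 ± 12.0 CPM in Esrrb_4OHT, with a log2 fold change of 0.04 and a 95% confidence interval from -0.13 to 0.20. Over the 12 wild-type samples, the genes most like Yap1 among 11200 were Trim33 (Pearson's r = 0.995 on log2 CPM), Smarca4 (0.992) and Marcks (0.991), a description over samples that share their groups.

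Wwtr1 (chr3:57455649-57575910, minus strand), which encodes TAZ, lay the other way round. Its level was 75.0, 46.1 and 37.8 CPM in DMSO, 73.4, 49.7 and 51.1 CPM in Fgf2/Activin, 117, 85.7 and 98.9 CPM in CH and 145, 121 and 120 CPM in 2i. Every CH and 2i sample lay above every DMSO and Fgf2/Activin sample. For 2i over Fgf2/Activin the log2 fold change was 1.15 (SE 0.24, adjusted p = 0.00201), a call that was lost without Fgf2/Activin replicate 2 (adjusted p = 0.0115) or 3 (adjusted p = 0.0114). For CH over DMSO it was 0.92 (SE 0.24, adjusted p = 0.00914), below the minimum fold change with all replicates and above it at 1.14 (SE 0.08) without replicate 1 and at 1.26 without DMSO replicate 1 alone. In Esrrb fl/fl cells Wwtr1 had 53.6, 45.3 and 49.1 CPM in Esrrb_NT and 120, 91.8 and 97.9 CPM in Esrrb_4OHT, a log2 fold change of 1.07 (SE 0.11, adjusted p = 5.86e-05). The call was lost at 0.94 without Esrrb_4OHT replicate 1, and at 1.00 it stood at the minimum fold change without replicate 1 of both groups. The groups did not overlap.

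Counts per kilobase of exon allow the coactivators to be set against each other. On this scale the ratio of Yap1 to Wwtr1 was 1.63 to 3.53 in DMSO, 1.58 to 2.51 in Fgf2/Activin, 0.695 to 1.06 in CH and 0.621 to 0.761 in 2i. It was 1.51 to 2.02 in Esrrb_NT and 0.6995 to 1.04 in Esrrb_4OHT. The summed level of the pair varied less, with means of 37.9, 37.5, 39.3 and 46.0 CPM per kilobase in DMSO, Fgf2/Activin, CH and 2i, 28.9 in Esrrb_NT and 40.6 in Esrrb_4OHT. These ratios depend on the exon length taken: with the longest transcript in place of all exons they ran from 2.81 to 6.09 in DMSO and from 1.20 to 1.83 in CH, in the same order.

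Of the TEAD members, Tead1 and Tead4 were higher and Tead2 was lower with CHIR99021, and Tead3, no member here, was lower too. Tead1 (chr7:112679318-112906807, plus strand) had 80.0, 34.8 and 32.7 CPM in DMSO, 39.5, 25.1 and 27.9 CPM in Fgf2/Activin, 156, 146 and 134 CPM in CH and 172, 155 and 160 CPM in 2i. The lowest sample with CHIR99021 lay above the highest without it. The log2 fold change of CH over DMSO was 1.56 (SE 0.30, adjusted p = 0.00157) and 2.06 (SE 0.06) without replicate 1, and that of 2i over Fgf2/Activin was 2.39 (SE 0.31, adjusted p = 7.17e-05). When only the 6 samples of CH and DMSO were fitted, Tead1 was no longer called (adjusted p = 0.0134), against adjusted p-values of at most 0.00765 in the other alternatives. In Esrrb fl/fl cells its level was 150 ± 8.22 CPM (SD, n = 3) in Esrrb_NT and 149 ± 7.17 CPM in Esrrb_4OHT, and the 95% confidence interval of the log2 fold change ran from -0.14 to 0.13.

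Tead4 (chr6:128224288-128300823, minus strand), the TEAD factor known from the trophectoderm, had the widest range of group means of the members over the wild-type cultures on the scale of log2(CPM + 1), at 2.66, followed by Tead1 at 2.38 and Cyr61 at 2.23. It had 11.1, 4.57 and 4.01 CPM in DMSO, 8.81, 5.06 and 4.83 CPM in Fgf2/Activin, 18.3, 22.1 and 25.6 CPM in CH and 42.2, 43.6 and 43.1 CPM in 2i. Its level in 2i was above every CH sample, but the log2 fold change of 0.97 (SE 0.34, adjusted p = 0.13) passed neither threshold. Without replicate 1 the same difference was 0.87 (SE 0.08, adjusted p = 2.62e-06), which again missed the minimum fold change. For CH over DMSO the log2 fold change was 1.74 (SE 0.35, adjusted p = 0.00234) and 2.47 (SE 0.11) without replicate 1, and for 2i over Fgf2/Activin 2.78 (SE 0.36, adjusted p = 8.32e-05). The call in CH was lost with only the 6 samples compared (adjusted p = 0.0158) and without DMSO replicate 2 (adjusted p = 0.0119). In Esrrb fl/fl cells Tead4 had 39.6, 35.0 and 33.7 CPM in Esrrb_NT and 30.6, 23.0 and 22.8 CPM in Esrrb_4OHT, a log2 fold change of -0.50 (SE 0.12, adjusted p = 0.00741) that did not reach the minimum fold change. Most like Tead4 over the 12 wild-type samples were Slc6a6 (Pearson's r = 0.996), Mybl2 (0.991) and Epb41l4a (0.991). Trophectoderm markers were called too: Cdx2 and Tfap2a were higher in CH than in DMSO and Eomes was lower (2 lower without replicate 1), while Gata3, Elf5 and Hand1 did not pass the count filter. The summed trophectoderm level was 22.9 to 31.9 CPM in DMSO, 77.2 to 121 CPM in CH and 39.6 to 42.7 CPM in 2i. Whether trophectoderm cells were present, and any part of them in the Tead4 level, was not tested.

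Tead2 (chr7:45215753-45233644, plus strand) took the opposite course. It had 186, 175 and 180 CPM in DMSO, 228, 208 and 210 CPM in Fgf2/Activin, 83.6, 62.4 and 62.0 CPM in CH and 61.6, 54.1 and 54.2 CPM in 2i. The groups with and without CHIR99021 were far apart, and replicate 1 had at most 1.34 times the level of the others. The log2 fold change was -1.38 in CH over DMSO (SE 0.11, adjusted p = 3.76e-06) and -1.93 in 2i over Fgf2/Activin (SE 0.11, adjusted p = 2.35e-07). Fgf2/Activin samples all lay above DMSO samples, by 0.25 on the log2 scale (SE 0.11, adjusted p = 0.266). After 4OHT, Tead2 went from 79.5, 83.9 and 86.7 CPM to 102, 122 and 122 CPM, a log2 fold change of 0.47 (SE 0.08, adjusted p = 0.00084), below the minimum fold change. Exons of Cd37 on the other strand cover 0.27% of those of Tead2, and Cd37 had at most 113 counts in any sample.

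Per kilobase of exon, the shares of Tead1 to Tead4 in their sum changed with the culture, as the plot of TEAD composition shows. Tead3, the fourth factor of the family and no member here, is included in the sum. Tead1 and Tead4 together made up 17.3%, 9.11% and 8.22% in the DMSO samples and 6.72% to 9.69% in Fgf2/Activin. They made up 48.4%, 56.0% and 56.5% in CH and 64.9% to 67.3% in 2i. Tead2 held 74.9% to 87.9% in DMSO and 32.1% to 34.3% in 2i. The wild-type groups with and without CHIR99021 did not overlap. In Esrrb_NT, with CHIR99021 for 24 h, Tead1 and Tead4 made up 51.2% to 57.0%, overlapping the CH range, and in Esrrb_4OHT 37.8% to 45.2%, below every Esrrb_NT sample. The sum of all 4 factors was 45.6 ± 5.49 CPM per kilobase (SD, n = 3) in DMSO, 31.5 ± 2.42 in CH, 39.3 ± 0.504 in Esrrb_NT and 44.5 ± 0.995 in Esrrb_4OHT. With the longest transcript as length, the share of Tead1 and Tead4 was 7.52% to 15.6% in DMSO and 46.3% to 54.0% in CH.

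**Figure D3:**
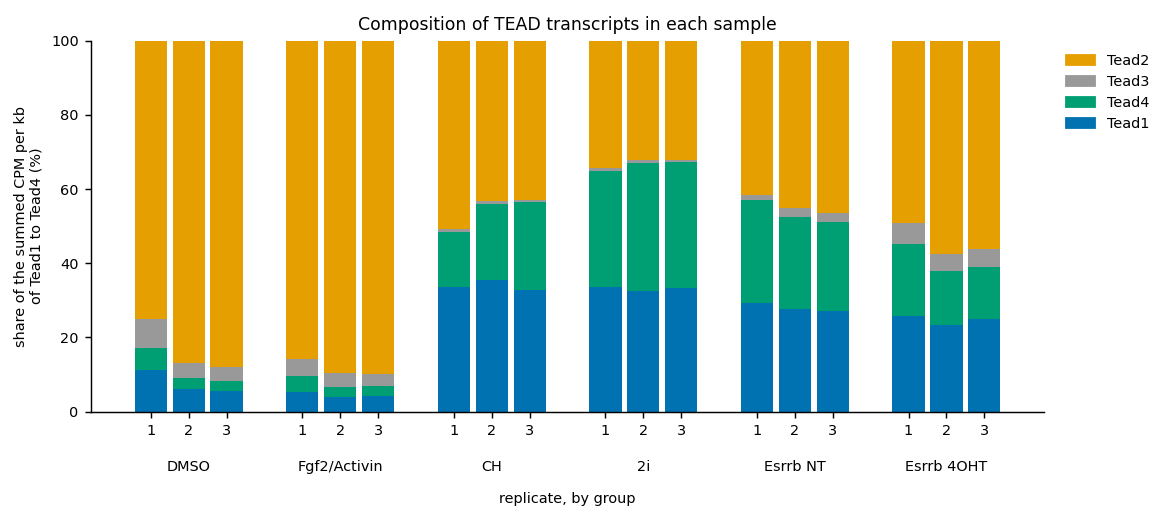
Share in percent (vertical axis) of each TEAD factor in the summed CPM per kilobase of exon of Tead1 to Tead4, 1 bar a sample, by group. Tead2 fills most of each bar in DMSO and Fgf2/Activin (74.9% at least), and Tead1 with Tead4 fills 48.4% to 67.3% in CH and 2i.

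Of the targets, Ctgf (chr10:24595442-24598683, plus strand), which encodes a secreted matrix-associated protein, gave no stable direction between wild-type cultures. It had 59.4, 13.3 and 11.5 CPM in DMSO, 39.1, 18.8 and 21.2 CPM in Fgf2/Activin, 21.4, 17.4 and 18.4 CPM in CH and 17.6, 16.5 and 17.5 CPM in 2i. DMSO replicate 1 was the highest of the 12 samples and DMSO replicates 2 and 3 were the lowest. The log2 fold change of CH over DMSO was -0.56 (SE 0.52, adjusted p = 0.422), and without replicate 1 it was 0.53 (SE 0.10, adjusted p = 0.000253). For Fgf2/Activin over DMSO it was -0.09 (SE 0.52) with all replicates and 0.69 (SE 0.10, adjusted p = 0.000131) without replicate 1. A fit blocked on replicate number gave 0.09. Its level was higher in Esrrb fl/fl cells, with 78.8, 72.2 and 69.3 CPM in Esrrb_NT and 91.3, 61.3 and 59.9 CPM in Esrrb_4OHT. These overlapped, at a log2 fold change of -0.05 with a 95% confidence interval from -0.39 to 0.29, and without replicate 1 it was -0.23 (SE 0.05, adjusted p = 0.000173). Exons of the antisense gene Gm15270 cover 23.24% of the exons of Ctgf, and counting without strand cannot tell their reads apart. Reads assigned to Gm15270 numbered 1 to 23 in every sample.

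Cyr61 (chr3:145646976-145649981, minus strand), a matrix-associated relative of Ctgf, was lowest in 2i among the wild-type cultures and higher in Esrrb_4OHT than in Esrrb_NT. It had 77.4, 13.6 and 13.6 CPM in DMSO, 40.4, 15.9 and 16.2 CPM in Fgf2/Activin, 28.1, 10.4 and 10.1 CPM in CH and 4.39, 4.34 and 4.62 CPM in 2i. All 2i samples lay below all others, while DMSO, Fgf2/Activin and CH were split by replicate 1. For 2i over CH the log2 fold change was -1.87 (SE 0.71, adjusted p = 0.166) with all replicates and -1.20 (SE 0.11, adjusted p = 1.5e-06) without replicate 1, where it was called. For 2i over Fgf2/Activin it was -2.44 (SE 0.72, adjusted p = 0.0148), not called. That difference was called with the replicate number as a block (-2.23, SE 0.38, adjusted p = 0.000372) and without replicate 1 (-1.84, SE 0.10, adjusted p = 5.76e-10). CH over DMSO was -1.11 (SE 0.68, adjusted p = 0.213), and -0.40 (SE 0.09) without replicate 1. In Esrrb fl/fl cells Cyr61 rose from 47.2, 40.2 and 39.5 CPM to 231, 148 and 151 CPM. This is a log2 fold change of 2.06 (SE 0.17, adjusted p = 2.33e-05), 4.18-fold, and it was 1.91 (SE 0.04) without replicate 1. The lowest Esrrb_4OHT sample was above the highest Esrrb_NT sample.

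Ankrd1 (chr19:36111961-36120099, minus strand), an ankyrin-repeat protein of the nucleus and the sarcomere, was barely detected. It had 0 counts in all 3 DMSO samples, which allows up to 3 counts a library by counting error alone, and 5, 5 and 13 counts in Fgf2/Activin, 5, 8 and 3 in CH and 7, 6 and 3 in 2i. The 3 Esrrb_NT libraries also had 0 counts, and the Esrrb_4OHT libraries had 43, 14 and 18. Set against the floor of 3 counts per library, its mean of 1.21 CPM in Esrrb_4OHT was at least 7.58-fold higher, and the lowest sample at least 4.20-fold higher. The test called it higher (adjusted p = 0.00217, and 3.14e-06 without replicate 1). It passed the count filter only through its Esrrb_4OHT counts, however, so it could not have been called lower, and the call adds no support. At so few counts only the direction and the bound can be read, and the promoter window of Ankrd1 was the one of the 5 printed that held GGAATG at 2 places.

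The angiomotins were unlike each other. Amotl2 (chr9:102716672-102733418, plus strand), which is also counted among the YAP targets, had 409, 192 and 163 CPM in DMSO, 343, 177 and 183 CPM in Fgf2/Activin, 232, 162 and 166 CPM in CH and 212, 162 and 163 CPM in 2i. Apart from replicate 1 the wild-type cultures lay between 162 and 192 CPM. Log2 fold changes of all 4 wild-type comparisons were between -0.45 and -0.06 (SE 0.35, adjusted p at least 0.325). In Esrrb fl/fl cells Amotl2 went from 129, 119 and 113 CPM to 238, 209 and 212 CPM after 4OHT. The groups did not overlap, and the log2 fold change of 0.86 (SE 0.07, adjusted p = 1.94e-05) stayed under the minimum fold change.

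Amot (chrX:145446425-145505181, minus strand), the gene of angiomotin, was called in all 5 comparisons. It had 9.55, 11.2 and 13.5 CPM in DMSO, 22.0, 31.6 and 34.2 CPM in Fgf2/Activin, 26.3, 27.5 and 19.7 CPM in CH and 9.72, 7.76 and 8.12 CPM in 2i. DMSO and 2i were low, and each CH and Fgf2/Activin sample lay above both. The log2 fold change was 1.10 in CH over DMSO (SE 0.20, adjusted p = 0.00107), -1.52 in 2i over CH (SE 0.20, adjusted p = 0.00127) and -1.78 in 2i over Fgf2/Activin (SE 0.20, adjusted p = 2.94e-05). Without replicate 1 the first of these was 0.95 (SE 0.13), just under the minimum fold change, and without DMSO replicate 1 alone it was 0.99. For Fgf2/Activin over DMSO it was 1.36 (SE 0.20, adjusted p = 0.00271). That call was lost with only the 6 samples compared (adjusted p = 0.0251) and without DMSO replicate 1 or 2 or Fgf2/Activin replicate 2 or 3 (adjusted p = 0.011 to 0.0159). The call between 2i and CH was lost without 2i replicate 2 (-1.45, adjusted p = 0.0102). Amot had its highest level after 4OHT, at 53.6, 73.0 and 77.3 CPM, against 6.69, 9.63 and 10.5 CPM in Esrrb_NT. The log2 fold change of 2.93 (SE 0.18, adjusted p = 6.77e-06) is 7.61-fold, and it was 2.90 (SE 0.07) without replicate 1.

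**Figure D4:**
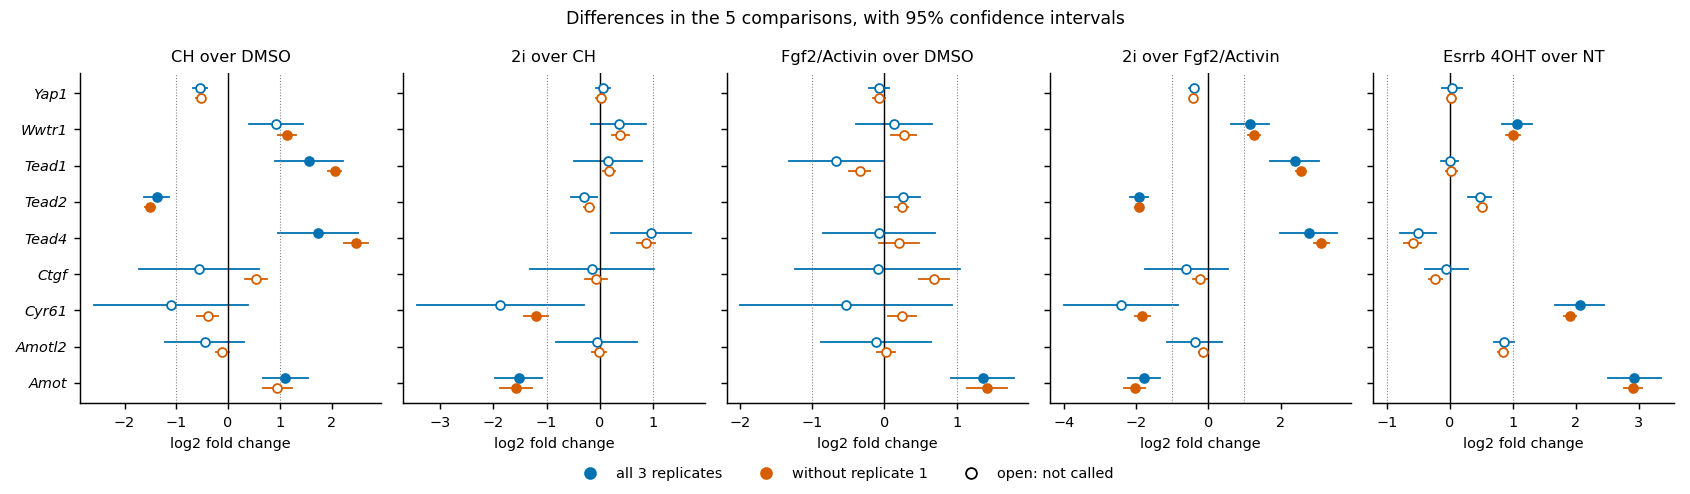
Log2 fold change (horizontal axes) with its 95% confidence interval for 9 members in the 5 comparisons, with all replicates (blue) and without replicate 1 (orange); filled points were called. Ankrd1 is left out because its fold change against samples at 0 has no fixed value. Tead1, Tead2 and Tead4 keep their direction without replicate 1 in CH over DMSO and 2i over Fgf2/Activin, while Ctgf moves from -0.56 to 0.53 in CH over DMSO.

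The other TEAD, angiomotin and Vestigial-like genes were followed from a list, of which 4 of 6 were tested. Vestigial-like proteins are other partners of the TEAD factors. Between CH and DMSO 1 was called higher and 3 lower, where 7.51% and 10.2% of all genes were. Tead3 averaged 16.6 ± 9.28 CPM (SD, n = 3) in the DMSO samples and 1.54 ± 0.284 CPM in the CH samples (log2 fold change -3.42, SE 0.38, adjusted p = 3.84e-05). Vgll4 went from 11.4 ± 1.54 to 25.5 ± 5.93 CPM, a log2 fold change of 1.16 (SE 0.19, adjusted p = 0.000552). Vgll3 fell by 2.41 (SE 0.40, adjusted p = 0.000602). Between Esrrb_4OHT and Esrrb_NT all 4 tested were called higher, where 12.8% of all genes were called higher and 3.87% lower. Without replicate 1 it was 3 of 4. Tead3 rose from 5.44 ± 1.59 to 15.3 ± 1.21 CPM (log2 fold change 1.49, SE 0.20, adjusted p = 0.000253) and Vgll3 from 1.44 ± 0.543 to 11.6 ± 3.32 CPM (3.00, SE 0.30, adjusted p = 6.07e-05). The Tead3 samples lay between 1.24 and 1.81 CPM in CH and between 3.61 and 6.40 CPM in Esrrb_NT, and those of DMSO between 11.1 and 27.3 CPM. None was called between 2i and CH or between Fgf2/Activin and DMSO, where 1 was higher and 0 lower, and 0 and 2, by an unadjusted p under 0.05 in edgeR and DESeq2 called 0 in both. Without replicate 1, 1 (Vgll3, named after its value was seen) was called higher between 2i and CH and 0 between Fgf2/Activin and DMSO.

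Most Hippo kinases, adaptors and upstream regulators were not called, with 19 of 20 tested. Over all genes, 7.51% were called higher and 10.2% lower between CH and DMSO, and 0.317% and 1.67% between 2i and CH. Between CH and DMSO 1 of the list was lower, Ajuba, a LIM protein that restrains Lats kinases, at 140 ± 3.70 CPM in CH and 316 ± 61.8 CPM in DMSO (log2 fold change -1.17, SE 0.12, adjusted p = 2.31e-05). By an unadjusted p under 0.05 in edgeR, 4 were higher and 8 lower, and DESeq2 called 0 and 1. Of all 16413 genes, 2246 were higher and 2504 lower at an adjusted p under 0.01 with no minimum fold change. Between 2i and CH 1 was lower, Ptpn14, a phosphatase that binds YAP, at 29.0 ± 1.31 against 96.7 ± 21.7 CPM (-1.74, SE 0.16, adjusted p = 0.000175). Between 2i and Fgf2/Activin 4 were lower, where 14.4% of all genes were, Dchs1, Ptpn14 and Ajuba by size of change and also Taok3. Dchs1 had at most 4 counts in any 2i sample and at most 64 in Fgf2/Activin, so it did not pass the count filter through 2i. None was called between Fgf2/Activin and DMSO, where 2 were higher and 3 lower by the unadjusted p in edgeR and DESeq2 and the fit with a replicate block each called 1 and 1. Without replicate 1, none was higher and 2 were lower between CH and DMSO and between 2i and CH, 1 was higher and 4 lower between 2i and Fgf2/Activin, and 1 was higher and 1 lower between Fgf2/Activin and DMSO. After 4OHT 5 of 19 were called higher and none lower, where 12.8% and 3.87% of all genes were, and the count was 5 and 0 without replicate 1 and by DESeq2. By the unadjusted p 13 were higher and 3 lower. Many genes changed there: 3664 of 14893 were higher and 2957 lower at an adjusted p under 0.01 with no minimum fold change. By size of change, Dchs1, Ptpn14 and Wwc2 led the 5 called. Dchs1 had at most 6 counts in any Esrrb_NT sample and at most 55 in Esrrb_4OHT. It passed the count filter only through Esrrb_4OHT, so it could not have been called lower. Ptpn14 went from 104 ± 2.37 to 276 ± 16.4 CPM (log2 fold change 1.41, SE 0.05, adjusted p = 1.03e-06). Lats2 and Frmd6 were the others, named after their values were seen. Lats2, the kinase that phosphorylates YAP and is itself a target, went from 15.5 ± 1.92 to 35.2 ± 1.96 CPM. The median of the list was 0.35, with 0.00 over all genes.

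Of 18 further targets, taken from a published signature of YAP and TAZ target genes without the members, 15 were tested in the wild-type cultures. Lats2 and Ptpn14 stand in both lists. Between CH and DMSO 5 were called higher and 2 lower, where 7.51% and 10.2% of all genes were. Nt5e, which encodes an ectonucleotidase, had 26.7 ± 0.718 CPM in CH and 0.371 ± 0.100 CPM in DMSO (log2 fold change 6.14, SE 0.58, adjusted p = 1.29e-05), and Myof, the gene of myoferlin, 19.6 ± 3.77 against 1.73 ± 0.0352 CPM (3.49, SE 0.20, adjusted p = 3.21e-07). Nuak2 and Arhgef17, named after their values were seen, were the 2 lower. Between 2i and CH 1 was called higher, Myof, and 2 lower, Ptpn14 and Igfbp3, where 0.317% and 1.67% of all genes were. Igfbp3 had 10.6 ± 1.91 CPM in 2i and 31.1 ± 3.10 CPM in CH. Between 2i and Fgf2/Activin 4 were higher and 4 lower, where 9.13% and 14.4% of all genes were. None was called between Fgf2/Activin and DMSO, with 2 higher and 3 lower by the unadjusted p in edgeR and 0 and 1 by DESeq2 and with a replicate block. The targets thus moved in both directions between wild-type cultures, with medians between -0.50 and 0.18. Without replicate 1, the counts of higher and lower calls were 5 and 2 between CH and DMSO, 1 and 3 between 2i and CH, 5 and 5 between 2i and Fgf2/Activin and 1 and 1 between Fgf2/Activin and DMSO.

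Between Esrrb_4OHT and Esrrb_NT 10 of 16 tested targets were called higher and none lower, where 12.8% and 3.87% of all genes were. They numbered 13 and 3 by the unadjusted p in edgeR and 10 and 0 by DESeq2. Without replicate 1 they were 9 and 1, where 1971 and 635 of 15110 genes were called. With all replicates, 3664 of 14893 genes were higher and 2957 lower at an adjusted p under 0.01 with no minimum fold change. The median log2 fold change of the list was 1.18, with 0.00 over all genes. Igfbp3, a secreted binding protein of insulin-like growth factors, rose from 10.5 ± 0.513 to 54.9 ± 2.27 CPM (2.39, SE 0.08, adjusted p = 5.84e-07), Myof from 1.64 ± 0.414 to 9.94 ± 2.15 CPM (2.59, SE 0.23, adjusted p = 3.18e-05) and Crim1 from 3.25 ± 0.882 to 14.1 ± 3.60 CPM (2.11, SE 0.25, adjusted p = 0.000147).

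**Figure D5:**
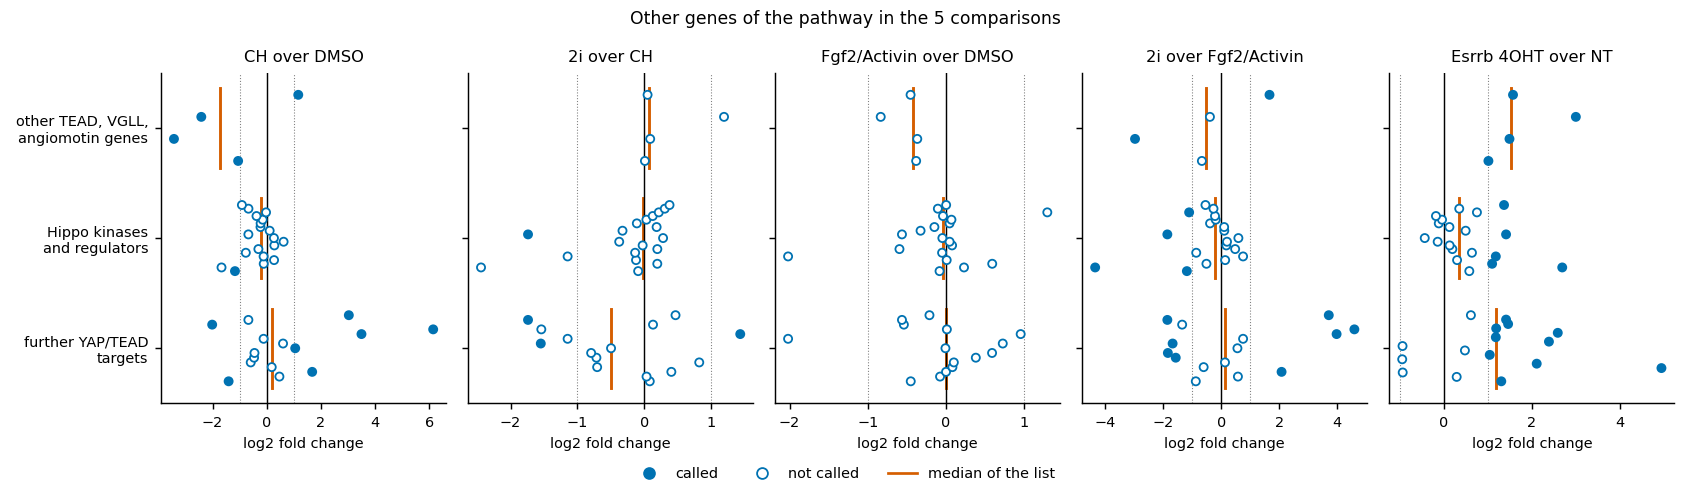
Log2 fold change (horizontal axes) of the other TEAD, angiomotin and Vestigial-like genes, the Hippo kinases and regulators, and the further targets in the 5 comparisons; filled points were called and the orange line is the median of each list. In Esrrb_4OHT over Esrrb_NT the medians are 1.53, 0.35 and 1.18.

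Ctgf, Cyr61 and Ankrd1 are also known as genes that respond quickly to serum and stress, so immediate early and heat shock genes were set beside them. After 4OHT 5 of 12 immediate early genes were called higher and none lower, where 12.8% and 3.87% of all genes were (8 and 1 by the unadjusted p in edgeR, 5 and 0 by DESeq2 and without replicate 1). Jun went from 2.89 ± 1.10 to 40.4 ± 14.7 CPM (log2 fold change 3.81, SE 0.32, adjusted p = 2.33e-05) and Atf3 from 2.23 ± 0.506 to 13.1 ± 0.943 CPM. The summed level of the list was 537 to 567 CPM in Esrrb_NT and 563 to 752 CPM in Esrrb_4OHT. Between 2i and CH, where every 2i sample lay below every CH sample for Cyr61, 2 of 12 were called lower (5 with a replicate block and 6 without replicate 1). Of all genes, 1.67% were called lower there, 534 of 16413 with a replicate block and 554 of 16428 without replicate 1. Egr1 had 1.26 ± 0.443 CPM in 2i and 152 ± 14.6 CPM in CH. Between 2i and Fgf2/Activin 7 of the 12 were called lower, and 10 without replicate 1. Of all genes, 14.4% were called lower there with all replicates and 2766 of 16428 without replicate 1. Of 5 heat shock genes, Hspb1 was higher in CH than in DMSO and in 2i than in Fgf2/Activin, and Hsph1 was called lower after 4OHT at a log2 fold change of -1.01, a call lost at -0.93 without replicate 1. Without replicate 1, 2 heat shock genes were also called lower in CH than in DMSO and 2 in 2i than in Fgf2/Activin. The summed heat shock level was 181 to 430 CPM in DMSO, and 700 to 720 CPM in Esrrb_NT against 423 to 456 CPM in Esrrb_4OHT. The part of these genes in the level of any member was not tested.

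Markers of other cells moved with the Esrrb comparison too. Of the pluripotency markers, Sox2 and Fgf4 were called lower after 4OHT, where 3.87% of all genes were, and 6 of 8 were not called. By the unadjusted p in edgeR all 8 were lower, and DESeq2 called 3 lower. The median log2 fold change of the list was -0.90. The sum of the list was 3274 to 3546 CPM in Esrrb_NT and 1814 to 2077 CPM in Esrrb_4OHT. The summed fibroblast level was 18.3 to 26.5 CPM in Esrrb_NT and 9.83 to 12.5 CPM in Esrrb_4OHT. Within that list Thy1 was lower, at 6.26 ± 2.33 against 22.6 ± 4.16 CPM, while Dcn and Col1a2 were higher, at 1.28 ± 0.207 and 2.74 ± 0.482 CPM against 0.0516 ± 0.0517 and 0.207 ± 0.136 CPM. Dcn had at most 2 counts and Col1a2 at most 7 in Esrrb_NT, so both passed the count filter only through Esrrb_4OHT. Primitive endoderm markers summed to 2.15 to 3.61 CPM in Esrrb_NT and 5.65 to 7.99 CPM in Esrrb_4OHT. Trophectoderm markers summed to 36.8 to 48.3 CPM in Esrrb_NT and 41.5 to 52.9 CPM in Esrrb_4OHT. Their part in the levels of the members was not tested.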

How the data were processed

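Gene-level read counts of 18 samples were used as deposited. The authors sequenced poly(A) RNA with a directional kit, aligned the reads with TopHat2 to mm10 and made the raw counts with HTSeq, without strand, on Ensembl genes of GRCm38, with default alignment settings; the Ensembl release is not given in the sources used here. Of 49671 identifiers, 49412 matched the GENCODE annotation at hand, among them all 10 members, and 31411 had a count.

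Groups were taken from the labels. Counts were fitted with edgeR 4.0.16 (R 4.3.3) using TMM scaling, filterByExpr and the quasi-likelihood test, the 12 wild-type samples in one fit and the 6 Esrrb fl/fl samples in another, since a shared estimate of the spread is more precise. Adjusted p-values are Benjamini-Hochberg adjusted over all genes tested, and calls needed an adjusted p under 0.01 and a log2 fold change above 1 in size. CPM per kilobase used the length of all exons of a gene. The procedure was tested on simulated data. DESeq2 1.42.0, other scalings, filters and subsets of samples were alternatives. Leaving out replicate 1 of every group was chosen after seeing the data. Replicate numbers come from the labels. Deviations from the group means correlated between same-numbered samples in every pair (Pearson's r 0.383 to 0.825 over genes averaging at least 100 counts). Replicate 2 of a group with replicate 3 of another correlated about as well (0.323 to 0.697), and replicate 1 with either of them negatively (-0.775 to -0.426). The numbers thus set replicate 1 apart and need not mark true pairs. A fit with the number as a block was run as well. No pair of replicates agreed within sampling noise (chi-square per gene 1.46 to 65.9).

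The members and lists were chosen with earlier results of these data known. All members are named. Of each list, the 3 called genes with the largest change and a mean of at least 10 counts are named per comparison, and any other gene named was chosen after its values were seen, apart from Esrrb, Tead3 and the markers. The genes most like a member were sought for Yap1 and for the member with the widest log2(CPM + 1) range.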

Additional observations from a re-analysis of the deposited data

How the results depend on the processing

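With DESeq2 size factors in place of TMM, all 46 log2 fold changes of the members kept their direction and their side of the thresholds. The block for replicate numbers changed the call of Cyr61 between 2i and Fgf2/Activin (-2.23), reversed Ctgf between Fgf2/Activin and DMSO (0.085), which was not called, and changed no other call of a member. It raised the number of genes called from 326 to 672 between 2i and CH and from 205 to 424 between Fgf2/Activin and DMSO. The DESeq2 test called 597 and 374, the fit without replicate 1 called 768 and 499, and the fit of only the 6 samples compared called 100 and 87. With those 6 samples 2 members were called between CH and DMSO and 0 between Fgf2/Activin and DMSO, and without replicate 1 it was 2 between 2i and CH. With no minimum fold change 4750 genes were called between CH and DMSO, 6193 between 2i and Fgf2/Activin and 6621 between Esrrb_4OHT and Esrrb_NT, where 7 members were called. Without replicate 1, uncalled members that reversed were Ctgf between CH and DMSO (0.53), Ctgf (0.69), Cyr61 (0.24), Tead4 (0.20) and Amotl2 (0.02) between Fgf2/Activin and DMSO, and Tead1 after 4OHT (0.03). The cause was not tested.

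Leaving out 1 replicate at a time gave 144 to 275 genes and 0 to 1 members between 2i and CH, and 112 to 171 genes and 0 to 1 members between Fgf2/Activin and DMSO. Log2 fold changes that reversed in such fits belonged to uncalled members. Between CH and DMSO they ran from -0.93 to 0.62 for Ctgf, from -1.77 to 0.25 for Cyr61 and from -0.69 to 0.071 for Amotl2, and between 2i and CH from -0.20 to 0.13 for Amotl2. Between Fgf2/Activin and DMSO they ran from -0.071 to 0.47 for Wwtr1, from -0.41 to 0.54 for Tead4, from -0.49 to 1.09 for Ctgf, from -1.12 to 0.83 for Cyr61 and from -0.50 to 0.40 for Amotl2. After 4OHT they ran from -0.033 to 0.092 for Yap1, from -0.038 to 0.038 for Tead1 and from -0.28 to 0.058 for Ctgf. With the longest transcript as length, 33 of 60 levels per kilobase moved by more than the spread between replicates. With 0 counts of Ankrd1 in 6 libraries, depth limits its fold change to a bound.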
